A study of Mus musculus with 6 samples.

Results

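The genes described here are 39 genes of the dividing cell, taken from a named list and split into 20 genes of DNA replication and entry into S phase and 19 genes of mitosis. They were followed in whole mouse lung at E18.5, shortly before birth, on 6 MOE430 V2 arrays. A gene was represented by its brightest probe set among those that name no other gene, and 38 of the 39 had one; Ccnb1, the gene of cyclin B1, did not and was not analysed here. Genes were tested only where the mean log2 signal over the 6 arrays reached that of the median probe set, equal to a signal of 497.8, so that 17 replication genes and 18 mitosis genes were tested among 10972 genes in all. The filter set aside Mcm10, Tyms and Cdc6. All lungs came from a mixed background of FVB/N and B6 mice. In 3 samples (Scap_ko, called Scap-deleted below) Scap had been removed from the respiratory epithelium, a genotype written Scap d/d, and 3 samples (Scap_control) were controls. The driver of the deletion, the alleles that controls carried and whether a sample is 1 animal or a pool are not given in the sources used here, so a p-value here weighs a difference against the scatter of 3 samples per group that may be no more than technical.

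A cell that is to divide first licenses its replication origins by loading the MCM helicase, then fires them and copies its DNA while enzymes of nucleotide synthesis supply the building blocks. Transcription of these genes is driven by E2F factors once cyclin-dependent kinases have inactivated the RB protein. A second wave of genes, expressed from G2 into mitosis, encodes cyclins A and B, their kinase CDK1, the spindle, the kinetochore and the checkpoint, and is controlled by the MuvB complex with B-MYB and FOXM1 and by NF-Y. In the fetal lung, epithelium, mesenchyme and endothelium all contain dividing cells, and division slows as the lung matures toward birth. Scap escorts the SREBP transcription factors that switch on sterol and fatty acid synthesis, and dividing cells need both for new membrane.

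Promoter stretches of 6 genes are shown as examples that hold the words searched, 3 of the helicase and 3 of the mitotic core. Of the 39 genes, 32 had promoter windows in the RefSeq table of GRCm38.p6 (33 windows, each from 250 bases before to 50 bases after the start), and Aurkb, Ccna2, Ccne2, Gins2, Kif20a, Mcm4 and Tpx2 had none there. Searches covered both strands and counted overlapping matches separately. The E2F words searched were TTTCCCGC, TTTGGCGC, TTTCGCGC and TTTGCCGC. At least 1 of them occurred in 7 of 18 replication windows (38.9%), in 1 of 15 mitosis windows (6.67%) and in 2.26% of all 32851 windows. The CHR word TTTGAA, bound by MuvB, occurred in 10 of 15 mitosis windows (66.7%), in 1 of 18 replication windows (5.56%) and in 17.9% of all windows. At least 2 copies of CCAAT, the NF-Y word, occurred in 9 of 15 mitosis windows (60%), in 6 of 18 replication windows (33.3%) and in 11.7% of all windows. At least 1 CCAAT occurred in 13 of 15 mitosis windows (86.7%), in 12 of 18 replication windows (66.7%) and in 37.4% of all windows. A match is only a run of letters. The 180 bases before the start are printed 5′ to 3′, with E2F words in capitals in the helicase genes and with TTTGAA and CCAAT, on either strand, in capitals in the mitosis genes.
Mcm5, chr8:75109329-75109508, plus strand: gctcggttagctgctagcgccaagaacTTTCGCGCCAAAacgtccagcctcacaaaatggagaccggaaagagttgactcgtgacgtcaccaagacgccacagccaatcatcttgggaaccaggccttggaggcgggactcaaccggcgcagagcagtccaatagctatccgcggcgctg
Mcm6, chr1:128359706-128359885, minus strand: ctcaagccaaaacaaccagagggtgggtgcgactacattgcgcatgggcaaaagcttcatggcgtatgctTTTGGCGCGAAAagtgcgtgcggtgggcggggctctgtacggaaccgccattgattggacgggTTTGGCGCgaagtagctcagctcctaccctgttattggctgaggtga
Mcm7, chr5:138171884-138172063, minus strand: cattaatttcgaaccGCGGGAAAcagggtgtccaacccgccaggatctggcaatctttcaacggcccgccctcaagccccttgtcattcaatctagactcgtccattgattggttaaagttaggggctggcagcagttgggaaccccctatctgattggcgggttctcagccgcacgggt
Ccnb2, chr9:70421555-70421734, minus strand: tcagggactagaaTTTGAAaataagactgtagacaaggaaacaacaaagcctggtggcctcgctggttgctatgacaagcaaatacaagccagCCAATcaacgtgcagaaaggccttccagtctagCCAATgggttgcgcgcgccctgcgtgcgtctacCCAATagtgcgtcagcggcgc
Cdk1, chr10:69352913-69353092, minus strand: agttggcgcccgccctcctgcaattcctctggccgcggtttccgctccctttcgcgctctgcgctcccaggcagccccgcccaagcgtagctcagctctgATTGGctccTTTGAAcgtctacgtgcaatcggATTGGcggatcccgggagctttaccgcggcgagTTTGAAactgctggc
Top2a, chr11:99024190-99024369, minus strand: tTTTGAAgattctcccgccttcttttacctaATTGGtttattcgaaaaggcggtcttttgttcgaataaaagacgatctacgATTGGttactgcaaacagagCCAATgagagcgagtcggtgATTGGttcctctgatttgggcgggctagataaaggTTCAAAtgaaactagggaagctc
The Mcm6 stretch holds 3 E2F matches, of which a pair overlaps on opposite strands, and the Mcm5 stretch holds an overlapping pair as well. In the Ccnb2 stretch 3 CCAAT boxes follow each other toward the start, and the Top2a stretch holds 4. Left in lower case, the Cdk1 stretch also holds an E2F match, and the helicase stretches printed hold CCAAT matches. Not every helicase gene has E2F words. The Mcm2 window, not shown, holds 0 E2F words and 1 TTTGAA, and the other of the Mcm7 windows holds 0 E2F words.

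Some facts of the arrays bear on what follows. Signals are linear and scaled to a common trimmed mean, and array medians lay between 490.8 and 530.4. Scap itself read 7264, 4195 and 3080 on the control arrays and 1847, 3286 and 2702 on the Scap-deleted ones. The groups overlapped (exact two-sided permutation p = 0.2, where 0.1 is the smallest that 3 against 3 allow). By limma, Scap in Scap-deleted lungs stood at 55.9% of control, a log2 difference of -0.84 with a 95% interval of -1.61 to -0.07. The limma p was 0.0371 unadjusted and 0.808 adjusted. Number 3 of either group stood apart from the remaining 4 arrays along the leading principal component (36.6% of the variance). Results are therefore also given without the arrays numbered 3. The titles number the arrays within each group and do not state what arrays of equal number share. Comparisons by number below are therefore descriptions and not known pairs. Of the defining markers of lung, all 12 epithelial, 11 alveolar type II, 12 endothelial and 12 fibroblast and smooth muscle genes with a probe set lay above the brightness limit. Of the 12 heart and skeletal muscle genes 7 lay above it too, the brightest being Actc1 at 12450 to 20449 over the 6 arrays. All 11 thymus genes and all 9 liver genes lay below the limit on average, although 3 liver genes were bright on control arrays. Afp, the alpha-fetoprotein gene, read 6700 on control array 2 and at most 693 elsewhere, the albumin gene Alb 1800 and 1048 on control arrays 1 and 2, and the apolipoprotein gene Apoa1 1213 on control array 2. Below, group signals are mean ± SD (n = 3 arrays). A log2 difference subtracts control from Scap-deleted, its SE and p come from limma, and the adjustment (Benjamini-Hochberg) runs across the 10972 genes. A percentage of control, or of other arrays, compares geometric means.

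No cell cycle gene passed the test between Scap-deleted and control lungs. By limma 0 of 17 replication genes and 0 of 18 mitosis genes had an adjusted p under 0.05 (1 gene, or 0.00911%, of all genes tested did), and 0 of the 35 had an unadjusted p under 0.05, against 5.92% of all genes tested. The groups overlapped in every one of the 35, whereas they did not overlap in 11.8% of all genes tested. Of the replication genes 13 of 17 had a positive difference, with a median of 0.10 (107% of control). Of the mitosis genes 11 of 18 were positive, with a median of 0.06 (104%). Over all genes tested 51.7% were positive, with a median of 100.4% of control. Single genes stood between 82.4% (Mcm2) and 127.4% (Mcm5) of control in the replication class and between 91.1% (Tpx2) and 127.4% (Cenpf) in the mitosis class.

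The absence of a call does not show that the groups were alike. The 95% interval of the difference lay wholly between a halving and a doubling, a log2 difference of -1 to 1, for 16 of 17 replication genes and for 15 of 18 mitosis genes. The exceptions were Mcm2, whose interval was -1.06 to 0.50, Cenpf (-0.61 to 1.31), Kif11 (-0.63 to 1.07) and Kif20a (-1.03 to 0.82). SEs were larger among mitosis genes, with a median of 0.30, than among replication genes, with a median of 0.18. The class medians moved with single arrays. Without Scap_ko replicate 3 the mitosis median was 0.36 with 18 of 18 genes positive, whereas without Scap_control replicate 3 it was -0.11 with 3 of 18 positive and without Scap_ko replicate 1 it was -0.15, again with 3 of 18. Without Scap_control replicate 1 and Scap_control replicate 2 it was 0.15 and 0.13, and without Scap_ko replicate 2 it was -0.034. Without both arrays numbered 3 it was 0.18 with 15 of 18 positive. The replication median ran from -0.027 without Scap_ko replicate 1, with 6 of 17 positive, and 0.026 without Scap_control replicate 3 to 0.22 without Scap_ko replicate 3, with 15 of 17 positive. It was 0.06 without Scap_ko replicate 2 and 0.15 without Scap_control replicate 1. With the mean of all probe sets of a gene in place of the brightest, which left 13 replication genes to test, it was 0.023.

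**Figure D1:**
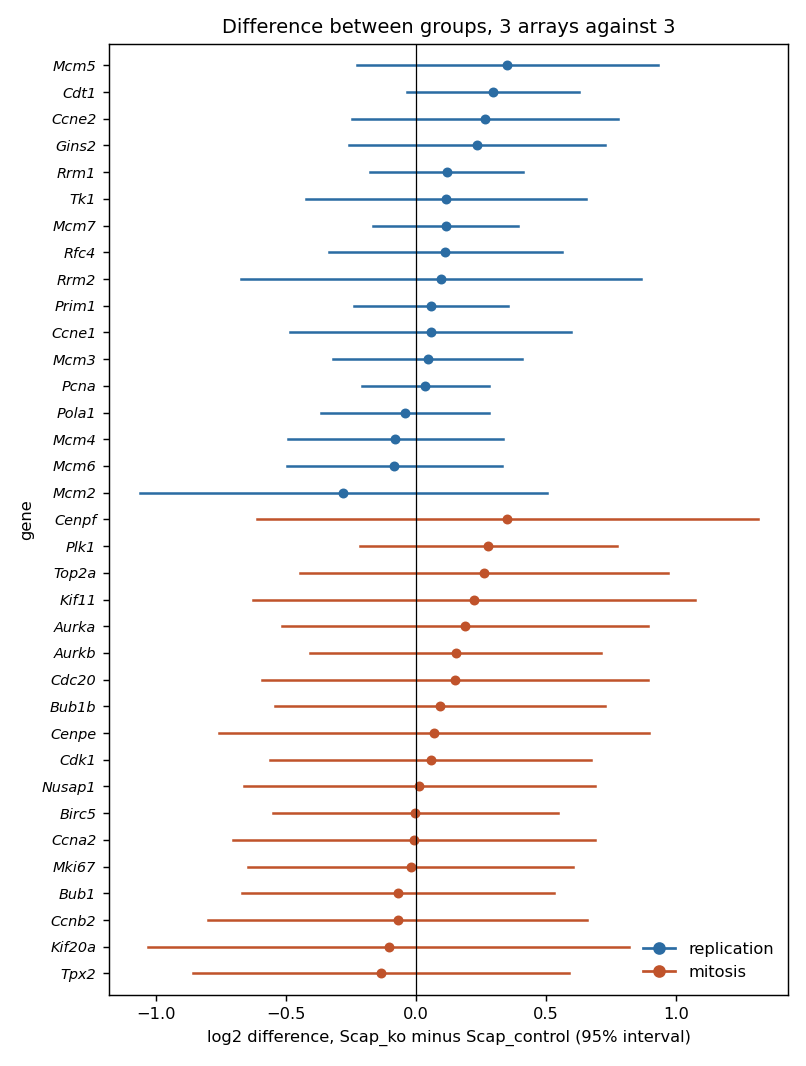
Log2 difference between Scap-deleted and control lungs for the 17 replication genes (blue) and 18 mitosis genes (orange) tested, with 95% intervals from limma, 3 arrays per group. Every interval includes 0, and those of mitosis genes are the wider, with a median half-width of 0.70 against 0.41.

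Among the helicase genes, which encode the 6 subunits of the MCM ring that opens DNA at the fork, 3 read higher and 3 lower in Scap-deleted lungs. Mcm5 read 2327, 2619 and 1604 on control arrays 1 to 3 and 3419, 2985 and 1983 on Scap-deleted arrays 1 to 3. The Scap-deleted array read above the control array in each same-numbered pair, and Scap-deleted array 3 lay within the range of the controls (log2 difference 0.35, SE 0.25, adjusted p = 0.9). Another Mcm5 probe set above the brightness limit gave 101.1% of control, against 127.4% for the brightest. Mcm2 read 3908, 4520 and 2955 on control arrays 1 to 3 and 5245, 2036 and 2731 on Scap-deleted arrays 1 to 3. Scap-deleted array 1 was the highest of all 6 and Scap-deleted array 2 the lowest, and this gene had the largest spread of its class (log2 difference -0.28, SE 0.33, adjusted p = 0.956). Mcm7 read 6535, 6163 and 5961 on control arrays 1 to 3 and 7512, 6988 and 5783 on Scap-deleted arrays 1 to 3. Its range was narrow, and the lowest reading was that of Scap-deleted array 3 (log2 difference 0.11, SE 0.12, adjusted p = 0.943). Mcm3 read 1891 ± 67.7 (control) and 1977 ± 396 (Scap-deleted), Mcm4 2778 ± 499 (control) and 2620 ± 422 (Scap-deleted) and Mcm6 3756 ± 845 (control) and 3485 ± 257 (Scap-deleted), at 103%, 94.5% and 94.4% of control. Of these 6 only Mcm6 stood above the other arrays of its group on number 3 in both groups, at 126% (control) and 109% (Scap-deleted). A dimmer Mcm6 probe set, above the limit, had its lowest reading of each group in number 3.

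Of the listed genes that load and activate the helicase, the 2 tested, Cdt1 and Gins2, read higher on average in Scap-deleted lungs. Cdt1, the licensing factor that brings the MCM ring to origins, read 2440, 2055 and 2142 on control arrays 1 to 3 and 3167, 2743 and 2282 on Scap-deleted arrays 1 to 3. It had the smallest p of all 35 genes (unadjusted p = 0.0723), each Scap-deleted array exceeded the control array of its number, and Scap-deleted array 3 lay within the range of the controls (log2 difference 0.29, SE 0.14, adjusted p = 0.853). A second Cdt1 probe set gave 107% of control. Gins2, a subunit of the GINS complex that activates the helicase, read 511, 739 and 430.5 on control arrays 1 to 3 and 728, 671 and 539.8 on Scap-deleted arrays 1 to 3. Control array 2 was the highest and control array 3 the lowest, so that the groups overlapped fully (log2 difference 0.23, SE 0.21, adjusted p = 0.926). Cdc6, which loads the ring together with Cdt1, and Mcm10, which helps to fire origins, were too dim to be tested, at 212 to 376 and 289 to 521 signal units over the 6 arrays.

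At the fork itself, Pcna, the sliding clamp that holds polymerases on DNA, read 10438, 9528 and 10742 on control arrays 1 to 3 and 11562, 10122 and 9829 on Scap-deleted arrays 1 to 3. It had the smallest spread of the class, with an SD of 0.10 over the 6 arrays on the log2 scale, and the 95% interval of its difference was -0.21 to 0.28 (log2 difference 0.04, SE 0.10, adjusted p = 0.986). Rfc4, of the clamp loader, stood at 108% of control, Prim1, the primase subunit, at 104%, and Pola1, the polymerase that extends the primer, at 97.1%. Their group means ± SD were 1037 ± 215 (control) and 1119 ± 215 (Scap-deleted), 1276 ± 117 (control) and 1331 ± 167 (Scap-deleted), and 619 ± 94.4 (control) and 598 ± 49.5 (Scap-deleted), in that order. A second probe set above the brightness limit gave 97.2% of control for Rfc4 and 92.9% for Prim1. Of the nucleotide enzymes, Rrm2, the regulated subunit of ribonucleotide reductase, read 2757, 2844 and 1748 on control arrays 1 to 3 and 3647, 2950 and 1554 on Scap-deleted arrays 1 to 3. Its highest and lowest readings were both in Scap-deleted lungs, on arrays 1 and 3 (log2 difference 0.10, SE 0.33, adjusted p = 0.986). Rrm1, the large subunit of the same enzyme, read 2750 ± 315 (control) and 2979 ± 308 (Scap-deleted), and thymidine kinase Tk1 851 ± 197 (control) and 922 ± 214 (Scap-deleted). In Tk1 and Rrm1 every Scap-deleted array was above the control array of its number, at 104.3% to 111.2% and at 107.5% to 110.1% of it. The groups overlapped all the same, with Scap-deleted array 2 below control array 1 in both genes. A second Rrm1 probe set above the limit gave 99.3% of control. Thymidylate synthase, Tyms, stayed below the limit at 272 to 469.

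The E cyclins activate CDK2 at the entry into S phase. Ccne2 read 606, 526 and 400.3 on control arrays 1 to 3 and 728, 672 and 452 on Scap-deleted arrays 1 to 3. Within each number the Scap-deleted array was higher, at 120.1%, 127.8% and 113% of control, and both arrays numbered 3 were the lowest of their group (log2 difference 0.26, SE 0.22, adjusted p = 0.917). Ccne1 read 735 ± 113 (control) and 785 ± 268 (Scap-deleted), with its highest reading on Scap-deleted array 1 (1094) and the next on control array 3 (853).

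Genes of mitosis differed widely among arrays of one group. Mki67, the gene of the Ki-67 antigen that coats mitotic chromosomes and is stained to count dividing cells, read 6208, 6078 and 4646 on control arrays 1 to 3 and 6683, 7076 and 3543 on Scap-deleted arrays 1 to 3. The lowest of each group was number 3, and the control readings lay within the range of the Scap-deleted ones (log2 difference -0.02, SE 0.27, adjusted p = 0.999). Top2a, the topoisomerase that untangles sister chromatids, read 4526, 3985 and 2628 on control arrays 1 to 3 and 5594, 5212 and 2796 on Scap-deleted arrays 1 to 3. Within each number the Scap-deleted array read higher, at 123.6%, 130.8% and 106.4% of control (log2 difference 0.26, SE 0.30, adjusted p = 0.955). A second, dimmer Top2a probe set gave 94.2% of control. Ccna2, the cyclin of S phase and G2, read 2444 ± 561 (control) and 2502 ± 875 (Scap-deleted), Ccnb2, a cyclin of mitosis, 1858 ± 367 (control) and 1851 ± 717 (Scap-deleted), and Cdk1, the kinase that both activate, 2769 ± 382 (control) and 2992 ± 1016 (Scap-deleted). These 3 stood at 99.4%, 95.2% and 104% of control.

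Of the mitotic kinases, Plk1, which drives entry into mitosis and centrosome maturation, read 997, 774 and 640.4 on control arrays 1 to 3 and 1090, 1096 and 737 on Scap-deleted arrays 1 to 3. It had the smallest p of the mitosis class (unadjusted p = 0.227), and Scap-deleted array 3 lay below control arrays 1 and 2 (log2 difference 0.28, SE 0.21, adjusted p = 0.902). Aurka, the aurora kinase of the spindle poles, read 1012, 1089 and 696 on control arrays 1 to 3 and 1541, 1076 and 683 on Scap-deleted arrays 1 to 3. Scap-deleted array 1 alone stood above the controls (log2 difference 0.19, SE 0.30, adjusted p = 0.97). Aurkb, the catalytic subunit of the chromosomal passenger complex, read 928, 834 and 602 on control arrays 1 to 3 and 1093, 935 and 624 on Scap-deleted arrays 1 to 3. Scap-deleted array 1 was the highest and both number 3 arrays were the lowest (log2 difference 0.15, SE 0.24, adjusted p = 0.968). Birc5, the survivin gene of the same complex, read 1376 ± 276 (control) and 1390 ± 375 (Scap-deleted), at 99.8% of control.

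Cdc20, which activates the anaphase-promoting complex once chromosomes are attached, read 4893, 5350 and 3113 on control arrays 1 to 3 and 6601, 5541 and 3032 on Scap-deleted arrays 1 to 3. The arrays numbered 3 were alike, with the Scap-deleted one at 97.4% of the control one, and stood at 60.8% (control) and 50.1% (Scap-deleted) relative to the mean of the other arrays of the group (log2 difference 0.15, SE 0.32, adjusted p = 0.982). The checkpoint kinase gene Bub1 read 1031 ± 255 (control) and 989.9 ± 278 (Scap-deleted) and its partner Bub1b 1123 ± 289.7 (control) and 1210 ± 374 (Scap-deleted).

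Among genes of the spindle and kinetochore, Cenpf, a large kinetochore protein that accumulates in G2, read 1524, 1545 and 753 on control arrays 1 to 3 and 1879, 2272 and 858 on Scap-deleted arrays 1 to 3. It had the widest spread of all 35 genes, with an SD of 0.63 on the log2 scale over the 6 arrays, and each Scap-deleted array exceeded the control array of its number (log2 difference 0.35, SE 0.41, adjusted p = 0.955). Kif20a, a motor of the midzone and cytokinesis, read 784, 667 and 335 on control arrays 1 to 3 and 683, 659.6 and 312 on Scap-deleted arrays 1 to 3. Here each Scap-deleted array read below the control array of its number, and both number 3 arrays stood at 46.4% (control) and 46.5% (Scap-deleted) of the mean of the other arrays of the group (log2 difference -0.11, SE 0.40, adjusted p = 0.987). The spindle motor gene Kif11 read 593 ± 199 (control) and 703 ± 293 (Scap-deleted), and the kinetochore motor gene Cenpe 709 ± 149 (control) and 795 ± 349 (Scap-deleted). Nusap1 and Tpx2, which bind and nucleate spindle microtubules, read 2253 ± 584 (control) and 2307 ± 783 (Scap-deleted), and 1291 ± 363 (control) and 1191 ± 390.5 (Scap-deleted).

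The genes differed among arrays of one genotype by more than the genotypes did, and number 3 was the low array of both. Each gene's log2 signal was set against its own mean over the 6 arrays and then averaged over the class. The mitosis class mean was 0.18, 0.17 and -0.47 on control arrays 1 to 3 and 0.43, 0.26 and -0.58 on Scap-deleted arrays 1 to 3. Both arrays numbered 3 were thus the lowest, Scap-deleted array 1 was the highest, and the group means of -0.04 and 0.04 differed by less than the SDs within groups, 0.37 (control) and 0.54 (Scap-deleted). The replication class mean followed the same order of extremes in a narrower range, 0.07, 0.03 and -0.22 on the control and 0.30, 0.05 and -0.23 on the Scap-deleted arrays, with group SDs of 0.16 and 0.26. The median SD of a gene over the 6 arrays was 0.44 in the mitosis class, 0.24 in the replication class and 0.16 over all genes tested. In whole lung, fewer dividing cells and less RNA per dividing cell cannot be told apart.

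**Figure D2:**
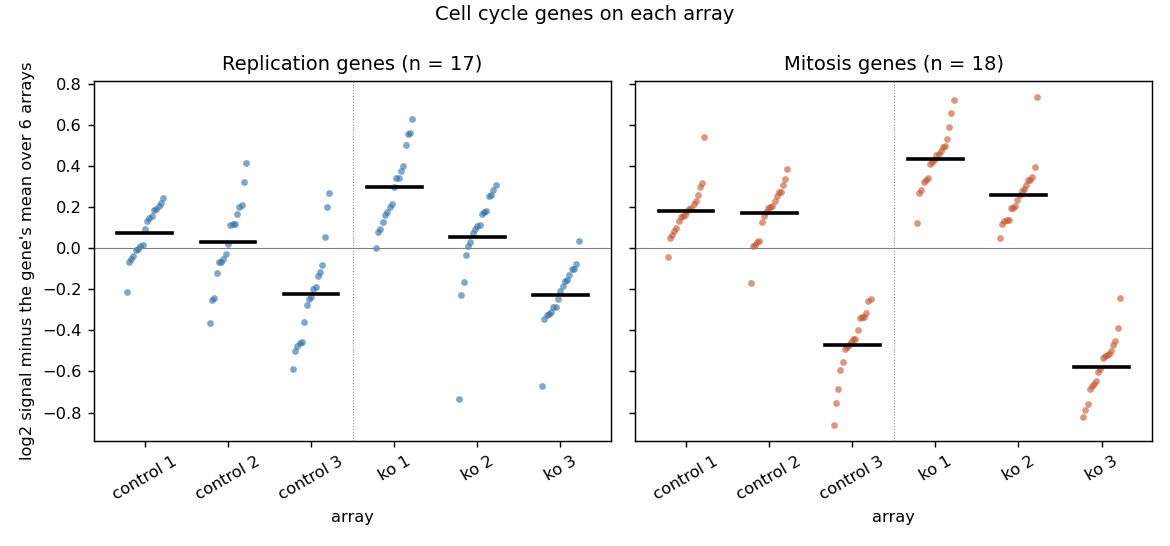
Log2 signal of each gene minus its own mean over 6 arrays, by array, for 17 replication and 18 mitosis genes. Each point is a gene, sorted by value within an array, and the black bar is the class mean. The mitosis means of control array 3 (-0.47) and Scap-deleted array 3 (-0.58) lie below those of the other 4 arrays.

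In all 18 mitosis genes tested, both arrays numbered 3 read below each of the other 4 arrays. The same was true of 11 of 17 replication genes and of 10.2% of all genes tested. This contrast was noticed in these values and is given as a description without a test. The median mitosis gene on control array 3 stood at 66.1% of the mean of control arrays 1 and 2, and on Scap-deleted array 3 at 51.8% of Scap-deleted arrays 1 and 2. The corresponding medians for replication genes were 75.8% and 77.2%. Over the mitosis class single genes ran from 46.4% (Kif20a) to 79.4% (Cdk1) in controls and from 41.1% (Cenpe) to 67.4% (Plk1) in Scap-deleted lungs. The replication genes outside the pattern were Mcm2, Mcm6, Pcna, Cdt1, Gins2 and Ccne1. Counts of 18 of 18 and 11 of 17 stayed the same under quantile normalization and with 50 added to the signal. The mean of all probe sets left 12 mitosis genes to test, of which 11 kept the pattern, and 13 replication genes, of which 7 did. All 7 other mitosis probe sets above the brightness limit also had their lowest reading of each group in number 3.

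**Figure D3:**
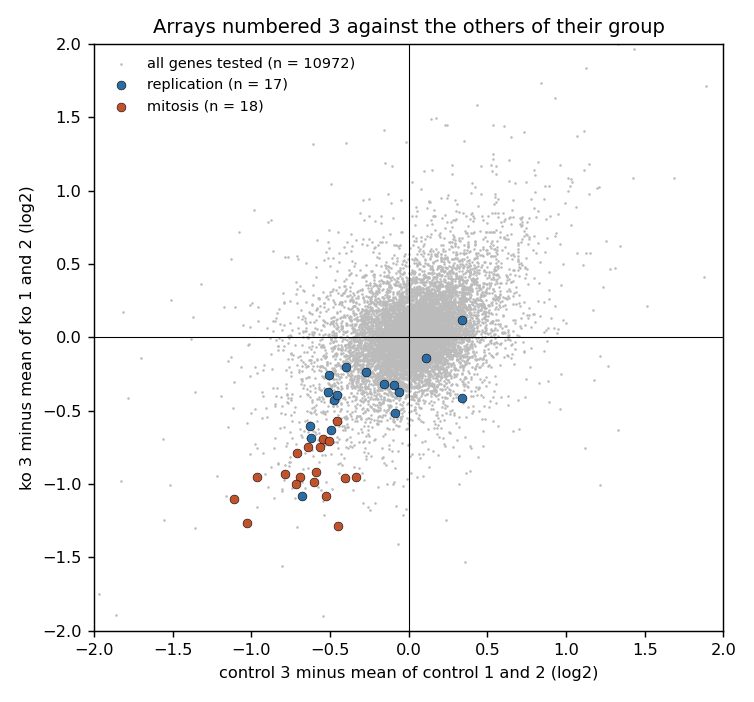
Difference of the array numbered 3 from the mean of the other arrays of its group, controls on the horizontal and Scap-deleted lungs on the vertical axis, in log2 units, for mitosis genes (orange), replication genes (blue) and all 10972 genes tested (grey, 18 of them outside the axes). All 18 mitosis genes lie below 0 on both axes.

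The difference was also taken within each number, although equal numbers are not known to mark a pair. On number 1 the Scap-deleted array was the higher one in 14 of 17 replication and 16 of 18 mitosis genes, against 49.4% of all genes tested, with medians of 115% and 118% of control. On number 2 it was higher in 12 of 17 and 9 of 18 (54.5% of all genes), with medians of 106% and 102%. On number 3 it was higher in 8 of 17 and 6 of 18 (47.9% of all genes), with medians of 97% and 95.2%. The direction of the class was therefore not shared by the 3 numbers. With the replicate number as a block in limma, 0 of the 35 genes passed (smallest adjusted p = 0.473), and 3 replication and 3 mitosis genes were higher at an unadjusted p of 0.05, against 0 without the block. In the blocked fit 4.18% of all genes tested were higher at that threshold, and in the fit without the block 2.88%. By limma, blocked log2 differences were 0.35 (SE 0.11, adjusted p = 0.473) for Mcm5, 0.29 (SE 0.11, adjusted p = 0.524) for Cdt1 and 0.26 (SE 0.09, adjusted p = 0.516) for Ccne2. By limma they were 0.35 (SE 0.11, adjusted p = 0.473) for Cenpf, 0.26 (SE 0.10, adjusted p = 0.56) for Top2a and 0.28 (SE 0.11, adjusted p = 0.564) for Plk1. These 6 genes read higher in the Scap-deleted array of every number, which is what the blocked fit favours and so adds no support. Rfc4, Rrm1, Tk1, Bub1b and Aurkb did the same without reaching that unadjusted threshold. Without both arrays numbered 3, Mcm5, Cdt1, Top2a and Cenpf were higher at an unadjusted p under 0.05, as were 3.85% of all genes in that fit, and 0 cell cycle genes passed (smallest adjusted p = 0.6). Leaving out Scap_ko replicate 3 alone gave 3 replication and 5 mitosis genes higher at that unadjusted threshold, beside 3.08% of all genes (smallest adjusted p = 0.592).

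**Figure D4:**
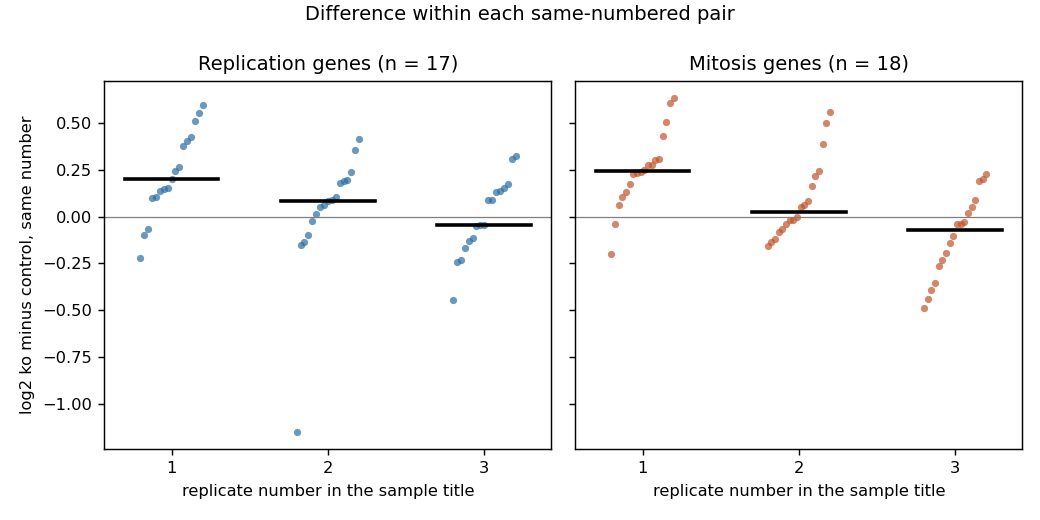
Log2 difference, Scap-deleted minus control, between arrays of the same replicate number, for 17 replication and 18 mitosis genes. Points are genes sorted by value, bars are medians, and the mitosis median goes from 0.24 on number 1 to 0.03 on number 2 and -0.07 on number 3.

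Further genes of the same machinery, taken from lists that hold none of the 39, were set beside them. Of 32 other replication genes tested, 0 passed the adjusted threshold, 3 were higher and 0 lower at an unadjusted p of 0.05, against 2.88% higher and 3.04% lower over all genes, and the median stood at 107% of control. Pola2, the accessory subunit of the polymerase that holds Pola1, read 658, 657 and 598 on control arrays 1 to 3 and 875, 1010 and 782 on Scap-deleted arrays 1 to 3. All 3 Scap-deleted arrays were above all controls, while Pola1 itself stood at 97.1% (log2 difference 0.47, SE 0.12, adjusted p = 0.687 for Pola2). Clspn, the claspin gene of the replication checkpoint, read 544 ± 91.4 (control) and 807 ± 164 (Scap-deleted) (log2 difference 0.56, SE 0.19, adjusted p = 0.751), and Rfc5, of the clamp loader, 999 ± 80.0 (control) and 1349 ± 287 (Scap-deleted) (log2 difference 0.41, SE 0.17, adjusted p = 0.829). The groups did not overlap in 5 of these 32 genes, beside 11.8% of all genes tested.

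Of 40 other mitosis genes tested, 0 passed, with a median at 106% of control. At an unadjusted limma p of 0.05, 0 were higher and 1 was lower, against 2.88% and 3.04% of all genes tested. The lower one was Cenpn, which joins the inner kinetochore to centromeric nucleosomes. It read 1309, 1345 and 1445 on control arrays 1 to 3 and 1156, 1100 and 1137 on Scap-deleted arrays 1 to 3, with no overlap of the groups (log2 difference -0.27, SE 0.09, adjusted p = 0.739). Unlike the 18 mitosis genes above, it was not low on the arrays numbered 3. Smc4, a condensin subunit, read 8808 ± 599 (control) and 9864 ± 418 (Scap-deleted), and Espl1, the separase gene, 681 ± 103 (control) and 832 ± 173 (Scap-deleted) (adjusted p = 0.885 and 0.894). Both arrays numbered 3 lay below the other 4 in 26 of the 40 genes. The same held in 8 of the 32 other replication genes and in 10.2% of all genes tested. The list means of the 40 were -0.33 on control array 3 and -0.35 on Scap-deleted array 3, against 0.13, 0.09, 0.30 and 0.15 on the rest.

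Regulators upstream of both waves likewise gave no call. Of 26 tested genes of G1 cyclins, kinases, E2F and RB proteins and FOXM1, 0 passed. Ccnd2, a D-type cyclin, was the 1 gene at an unadjusted limma p under 0.05, a threshold that 5.92% of all genes tested met. Ccnd2 read 8218, 9433 and 9826 on control arrays 1 to 3 and 11095, 11819 and 10510 on Scap-deleted arrays 1 to 3. Every Scap-deleted array was above every control array, and number 3 was not low in controls (log2 difference 0.29, SE 0.11, adjusted p = 0.798). Its relative Ccnd1 read 9947 ± 1031 (control) and 10390 ± 1776 (Scap-deleted), Rb1, the gene of the retinoblastoma protein, 3743 ± 229 (control) and 3379 ± 183 (Scap-deleted), E2f1 788 ± 77.7 (control) and 694 ± 137 (Scap-deleted) and Foxm1 1276 ± 88.7 (control) and 1152 ± 192 (Scap-deleted), with adjusted p from 0.897 to 0.986.

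Of 11 tested inhibitors of the cell cycle, 0 passed. At an unadjusted limma p of 0.05, 2 were higher, against 2.88% of all genes tested. Cdkn1a, the CDK inhibitor p21 that p53 induces, read 2616, 2465 and 2975 on control arrays 1 to 3 and 3241, 4151 and 5015 on Scap-deleted arrays 1 to 3. The lowest Scap-deleted reading was above the highest control reading, and the unadjusted p was 0.00783 (log2 difference 0.60, SE 0.17, adjusted p = 0.731). Within Scap-deleted lungs it was highest on array 3, where the mitosis class was lowest, and lowest on array 1, where that class was highest. In controls it was highest on array 3 as well. This order did not extend across the groups. Scap-deleted array 1 read above control array 3 in Cdkn1a, 3241 against 2975, and also in the mitosis class mean, 0.43 against -0.47. The mean of the 11 inhibitors did not follow Cdkn1a within Scap-deleted lungs, at 0.06, -0.07 and 0.01 on arrays 1 to 3. On control arrays 1 to 3 that mean was -0.05, -0.05 and 0.09. A link between Cdkn1a and the mitosis class was not tested. Pkmyt1, a kinase that restrains CDK1, read 848 ± 93.5 (control) and 1063 ± 111 (Scap-deleted) (log2 difference 0.33, SE 0.12, adjusted p = 0.801). Wee1, a related kinase, read 1720 ± 242 (control) and 1326 ± 439.8 (Scap-deleted) (log2 difference -0.42, SE 0.23, adjusted p = 0.879).

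Markers of the cell types in whole lung were read on the same arrays. Airway secretory genes (7 tested) were highest where the mitosis genes were lowest, with list means of 0.65 on control array 3 and 0.26 on Scap-deleted array 3, against 0.09 and -0.13 on control arrays 1 and 2 and -0.24 and -0.64 on Scap-deleted arrays 1 and 2. The 11 alveolar type II genes gave 0.23, 0.10 and 0.26 on the control and -0.35, -0.31 and 0.06 on the Scap-deleted arrays, so that number 3 was the highest of each group. Their median was 76.5% of control by genotype, with 0 of 11 passing by limma. At an unadjusted limma p of 0.05, 6 of 11 were lower, against 3.04% of all genes tested. The median gene on the arrays numbered 3 stood at 139% (controls) and 143% (Scap-deleted) of the other arrays for the secretory list and at 113% and 128% for the type II list. Leukocyte genes (11 tested) were likewise highest on number 3 of each group, at -0.01, -0.19 and 0.09 on the control and -0.03, -0.10 and 0.24 on the Scap-deleted arrays, and so were general epithelial genes, at 0.00085, -0.08 and 0.12 and at 0.01, -0.10 and 0.05. Endothelial genes ranged from -0.07 to 0.12 over the 6 arrays and fibroblast and smooth muscle genes from -0.19 to 0.10. Heart and skeletal muscle genes, of which 7 of 12 lay above the limit, gave 0.02, -0.22 and -0.0026 on the control and 0.28, -0.26 and 0.18 on the Scap-deleted arrays, and were thus highest on Scap-deleted array 1, as was the mitosis class. On that array Nppa, the atrial natriuretic peptide gene, read 11125, against at most 350.4 on the others. Erythroid genes had 4 of 9 above the limit, with Alas2, the heme synthesis enzyme of red cell precursors, at 14978 ± 1833 (control) and 12090 ± 1869 (Scap-deleted). The part of cell makeup in the array differences of the cell cycle genes was not tested.

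**Figure D5:**
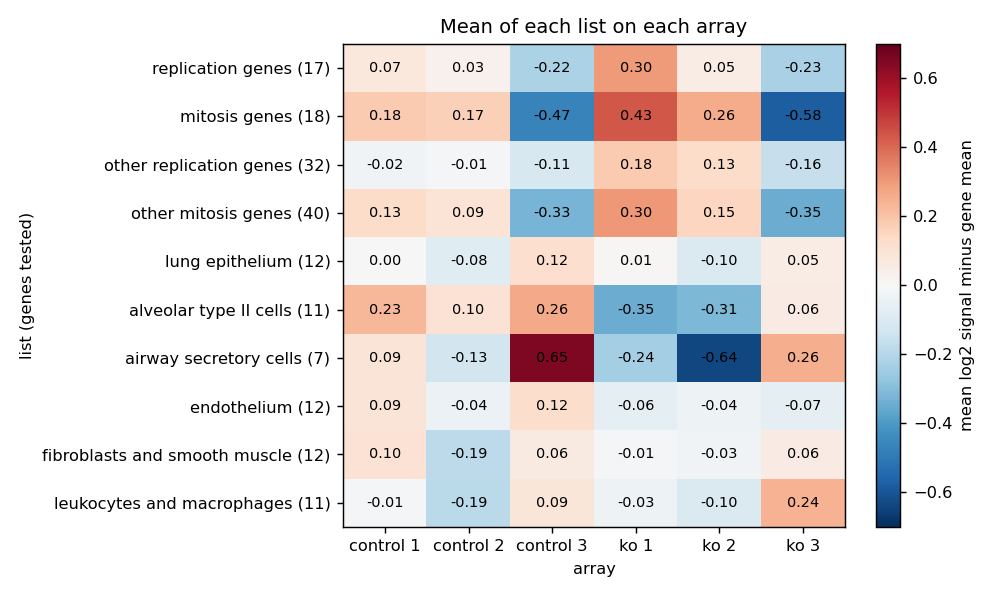
Mean over each list of log2 signal minus the gene's own mean over 6 arrays, by array; the number of genes tested is in parentheses. The mitosis genes run from -0.58 to 0.43, and the arrays numbered 3, low in mitosis genes, are the highest of each group in the airway secretory list (0.65 and 0.26).

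The choice of probe set mattered to the small differences between genotypes. Of the 35 genes tested, 17 had at least 1 other probe set above the brightness limit, 23 probe sets in all, and 14 of the 23 gave a difference opposite in sign to that of the brightest. Among them Mcm4 read 94.5% of control by the brightest and 125% by the other, and Mcm3 103.1% against 92.1% to 98.1%. In Cdc20, Kif11 and Aurkb, by contrast, every other probe set above the limit gave the same sign.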

How the data were processed

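Total RNA of whole lung, purified with RNeasy kits and labelled with biotin after Affymetrix protocols per the labels' protocols, was hybridised to 6 arrays, 3 in either group, whose titles give group and number. For 45101 probe sets the deposited values are intensity on a linear scale. RMA is named in the submitters' processing notes, but the values are linear, reach down to 0.2 and share a mean after trimming 2% at either end, so the software and background correction behind them remain unknown. Without detection calls, dim readings cannot be separated from background, and precision is limited by having 3 arrays a group.

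After removal of 64 controls, 45037 probe sets remained, of which 34945 named 1 gene, 932 several and 9160 none in the platform annotation. The gene table of GRCm38.p6 matched 34741, with 0 changed symbols. The log2 of the signal was taken with no pseudocount, each of 18193 genes was represented by its brightest probe set, and 10972 genes at or above the median brightness were tested in R 4.3.3 using limma 3.58.1 (lmFit, then eBayes) with 4 residual degrees of freedom and Benjamini-Hochberg adjustment. The fit was tested on simulated data. Same-numbered arrays correlated in their deviations from group means at 0.17, 0.20 and 0.43, all above 0.1, and were therefore also compared by number. Control 2 with Scap-deleted 1 gave 0.18 and control 1 with Scap-deleted 2 gave 0.08, so the values single out no match for numbers 1 and 2. The titles number the arrays within a group and state no pairing.

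The members and lists were chosen with earlier results of these data known. Values on every array are given for the brightest pair, up to 5 of smallest p and the pair of largest SD over arrays, per class. From each other list of cell cycle genes up to 3 of smallest p are named, with Ccnd1, Cdkn1a, Foxm1, E2f1 and Scap. Motifs were chosen from textbook knowledge and promoters came from RefSeq. Alternatives were quantile normalization, log2(signal + 50), no filter, a filter at the 75th percentile, the mean of all probe sets, the replicate block, leaving out each array, and leaving out both arrays numbered 3.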

Additional observations from a re-analysis of the deposited data

How the results depend on the processing

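No cell cycle gene passed at an adjusted p of 0.05 in any of the 13 alternatives run, with smallest adjusted p among them from 0.473 with the replicate block to 0.999 without Scap_control replicate 1. The number of all genes called, 1, became 0 with no filter, with the filter at the 75th percentile, with the replicate block and without both arrays numbered 3, and 0 to 1 when single arrays were left out. Cell cycle genes at an unadjusted p under 0.05, 0 in either class, became 3 higher replication and 3 higher mitosis genes with the replicate block (4.18% of all genes higher), and 2 and 2 without both arrays numbered 3 (3.85%). When single arrays were left out, higher replication genes numbered 0 to 3, lower ones 0 to 1 and higher mitosis genes 0 to 5, with 2.29% to 3.57% of all genes higher and 2.33% to 3.90% lower. Some small log2 differences turned sign. With the mean of all probe sets Mcm5 was -0.016, Rrm2 -0.034 and Ccnd1 -0.097. Without both arrays numbered 3 Mki67 was 0.16 and E2f1 0.0088. Leaving out single arrays gave -0.20 to 0.30 for Mki67, -0.48 to 0.26 for Kif20a, -0.035 to 0.082 for Pcna, -0.16 to 0.45 for Rrm2, -0.091 to 0.48 for Cdc20, -0.031 to 0.38 for Aurkb, -0.094 to 0.49 for Aurka, -0.66 to 0.018 for Mcm2 and -0.051 to 0.20 for Ccnd1. The Mcm5 mean took in a probe set below the brightness limit, with a mean signal of 112.8 and 75% of control. What made the probe sets and the arrays differ was not tested. The replicate block cannot move a difference in this balanced design, and it changed no call among the cell cycle genes. The class medians ran from -0.027 to 0.22 (replication) and -0.15 to 0.36 (mitosis) when single arrays were left out, and the Scap difference from -1.12 to -0.50. The filter at the 75th percentile tested 10 replication and 6 mitosis genes, of which 6 and 6 had both arrays numbered 3 below the other 4. That count and those under other scalings and probe sets were chosen after seeing the data.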
